A study of Mus musculus with 2 samples.

Results

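Tight junctions seal the space between neighbouring epithelial cells, and 10 genes that encode their parts were followed through the cells of inflamed mouse colon. They were taken by gene symbol from the 55357 genes of the deposited count matrices: 7 claudins (Cldn2, Cldn3, Cldn4, Cldn7, Cldn8, Cldn15 and Cldn23), occludin (Ocln), the scaffold gene Tjp1 and the adhesion gene F11r. Each symbol matched 1 row in both libraries. The samples were 2 single-cell libraries, numbered as repeats, of mid-colon from 7-week-old mice that had taken 3% dextran sulfate sodium (DSS) for 6 days, a polysaccharide that injures the colon lining. Both libraries form 1 group, and without untreated mice no value below describes an effect of DSS. Strain, sex and genotype are not given in the labels, nor whether different mice gave the 2 libraries. The p-values rest only on how far the differences between classes disagree between these 2 libraries, a spread that may be technical. After filtering, 5459 cells of library 1 and 8461 of library 2 were kept, with medians of 7937 and 6471 UMIs (unique molecular identifiers, each tagging 1 captured RNA molecule). Epithelial cells numbered 1834 and 1231, and 18 barcodes occurred in both libraries.

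Claudins span the membrane several times and pair across the gap between cells. Some of them form pores and others close the gap: Cldn2 and Cldn15 form channels for small cations, and Cldn3, Cldn4, Cldn7 and Cldn8 are mostly known for sealing. Occludin strengthens the strands, Tjp1 (ZO-1) ties them to actin, and F11r (JAM-A) is an immunoglobulin-type adhesion protein that endothelial cells and leukocytes also carry. The colon epithelium renews itself from dividing cells at the crypt base, whose daughters move up and mature into absorptive surface cells or goblet cells. In colitis, a shift of claudins from sealing to pore-forming members is a well-known feature of the leaky barrier.

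In the GENCODE M21 annotation of GRCm38, Cldn2 lies on chromosome X (139800828 to 139811386, plus strand), Cldn15 on chromosome 5 (136966616 to 136975858, plus strand), Cldn3 on the same chromosome (134986214 to 134987472, plus strand) and Cldn4 39279 bases away from Cldn3 on the minus strand (134945119 to 134946934). Cldn7 lies on chromosome 11 (69964779 to 69967885), Cldn8 on chromosome 16 (88560828 to 88563183), Cldn23 on chromosome 8 (35824712 to 35826559), Ocln on chromosome 13 (100496507 to 100552718), Tjp1 on chromosome 7 (65296165 to 65527781) and F11r on chromosome 1 (171437535 to 171464603). Counts of Cldn3 could hold reads of the overlapping antisense gene Wbscr25, which itself had 55 UMIs. The largest count among the 3 genes that overlap Tjp1 was the 85 UMIs of Gm44794.

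The RefSeq promoter table for GRCm38.p6 held 10 start sites of 8 of these genes. The 250 bases before the start are printed for Cldn2 and Cldn15, the pair that was high in crypt cells, and for the genome neighbours Cldn3 and Cldn4, which were higher in surface cells with TMM scaling. Letters run 5′ to 3′ on the gene's strand. Capitals mark matches on either strand to the motifs searched. The core of CDX sites was searched as TTTAT. The HNF1 half-site was searched as GTTAAT. The core of GRHL sites was searched as AACNNGTT. The core of TCF sites was searched as CTTTG, and the TATA box as TATAAA.
Cldn2, chrX:139800558-139800807, plus strand: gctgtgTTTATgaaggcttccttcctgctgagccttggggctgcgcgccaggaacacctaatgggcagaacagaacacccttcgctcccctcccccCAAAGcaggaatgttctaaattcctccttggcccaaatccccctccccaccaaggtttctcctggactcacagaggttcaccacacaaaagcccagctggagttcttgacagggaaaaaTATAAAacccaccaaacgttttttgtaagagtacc
Cldn15, chr5:136967619-136967868, plus strand: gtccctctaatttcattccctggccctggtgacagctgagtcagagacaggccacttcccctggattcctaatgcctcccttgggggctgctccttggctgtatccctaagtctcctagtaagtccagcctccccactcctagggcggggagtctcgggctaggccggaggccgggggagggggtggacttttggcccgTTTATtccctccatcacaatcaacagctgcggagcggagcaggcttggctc
Cldn3, chr5:134985964-134986213, plus strand: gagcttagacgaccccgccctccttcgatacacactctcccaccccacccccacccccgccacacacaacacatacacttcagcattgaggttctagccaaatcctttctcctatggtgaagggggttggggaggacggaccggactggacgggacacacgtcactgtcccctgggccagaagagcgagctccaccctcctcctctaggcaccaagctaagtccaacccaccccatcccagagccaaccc
Cldn4, chr5:134946935-134947184, minus strand: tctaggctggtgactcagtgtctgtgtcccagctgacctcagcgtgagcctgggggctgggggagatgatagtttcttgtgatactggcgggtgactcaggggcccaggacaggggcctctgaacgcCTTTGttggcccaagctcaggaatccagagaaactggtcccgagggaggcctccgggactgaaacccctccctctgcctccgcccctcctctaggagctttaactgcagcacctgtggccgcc
The CDX core was found in the windows of Cldn2 (2 matches), Cldn15 and Tjp1 (1 each), and 37.26% of all 32851 windows in the table hold it. The Cldn2 match at 34 bases before the start lies inside the only TATA box among the members, a motif of 12.37% of all windows. A TCF core stood in the Cldn2 and Cldn4 windows (48.58% of all windows). Neither the HNF1 half-site (6.43%) nor the GRHL core (3.64%) was present in any of the 10 windows. Such matches describe letters only and do not show that a factor binds.

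Across the tissue, all 10 genes were called higher in epithelial cells than in the mean of the other 9 named classes. These were endothelial cells, fibroblasts, smooth muscle with pericytes, mononuclear phagocytes, neutrophils, mast cells with basophils, B cells, plasma cells and the T class (T, NK and ILC). Raw counts summed per library and class were compared with edgeR's quasi-likelihood test, and 55.1% of the 14027 genes tested were called (36.1% higher and 19% lower in the epithelium) at an adjusted p (Benjamini-Hochberg) under 0.05. Levels are CPM, a gene's UMIs scaled to a fixed total of UMIs in the same cells. Cldn7, which seals the colon epithelium and had the most UMIs of the 10 genes, stood at 3051 CPM in the epithelium of library 1 and 3049 CPM in library 2, with log2 4.92 ± 0.18 (SE) over the other classes (adjusted p = 3.5e-17). For Cldn3 the epithelial levels were 830.4 and 720.5 CPM, and the difference was 4.84 ± 0.14. Ocln reached 52.9 and 43.5 CPM and had the largest difference of the 10, 5.35 ± 0.24. The other claudins lay between 4.01 (Cldn23) and 5.12 (Cldn8). These means include classes of few cells without any UMI. Mast cells with basophils (33 and 41 cells) had 0 UMIs of Ocln (11.5 ± 1.7) and Cldn8 (10.6 ± 2.1). Smooth muscle with pericytes (24 and 27 cells) had 0 of Cldn4 (10.7 ± 2.0) and Cldn15 (11.7 ± 1.6). The order of the genes by this difference is therefore not resolved. The epithelium held 97.8% and 95.1% of all Cldn2 UMIs in kept cells, and 97.7% and 96.5% of those of Cldn7. The median of all genes in this comparison was 0.12 with the normalisation used (TMM), 0.07 with plain CPM and 1.93 per cell. All 10 genes lay above it on each scale, F11r being the lowest at 2.58, 2.52 and 4.33.

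F11r and Tjp1 also had high levels outside the epithelium. F11r, which leukocytes and endothelium are known to carry, stood at 355 and 394 CPM in endothelial cells, above its 248 and 214 CPM in epithelium in both libraries. The difference of epithelium minus endothelium was −0.32 ± 0.17 on the log2 scale (adjusted p = 0.12), so it did not pass the test. Tjp1 had 219.9 and 203 CPM in endothelium against 142 and 132 CPM in epithelium (−0.23 ± 0.19, adjusted p = 0.33). Phagocytes held F11r at 132 and 119.9 CPM, lower than the epithelium by log2 0.88 ± 0.16 (adjusted p = 4.5e-05). Tjp1 was also found in fibroblasts (69.9 and 72.5 CPM) and in smooth muscle and pericytes (83.3 and 129.5 CPM), while phagocytes had 4.86 and 3.82 CPM. Cldn15 stood at 24.2 and 14.9 CPM in endothelium and at 13.0 and 12.2 CPM in neutrophils, below the 51.3 and 59.7 CPM of the epithelium (adjusted p = 1.6e-05 and 0.00018). Of all genes, 48% were called between epithelium and endothelium (25.6% higher and 22.4% lower in epithelium), 62.3% against phagocytes (32.8% and 29.5%) and 67.9% against neutrophils (40.2% and 27.7%). The epithelium held 87.9% and 70.3% of F11r UMIs. When the 10 classes were ranked by mean CPM, adjacent classes were apart in both libraries in 8 of 9 pairs for Tjp1 and 7 of 9 for F11r, but in 1 of 9 for Cldn2, Cldn8 and Cldn23, so below the epithelium the order of these 3 claudins was not resolved.

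Claudin UMIs also appeared at a low level in every leukocyte class, and the ratio between genes describes them. The T class had 107 and 97.4 CPM of Cldn7 and 28.1 and 26.3 CPM of Cldn3, which is 26.4 and 27.0 Cldn3 UMIs per 100 Cldn7 UMIs. The epithelium itself had 27.2 and 23.6. F11r, Tjp1 and Cldn15 departed from the epithelial ratio in other classes: phagocytes held 184 and 163 F11r UMIs per 100 Cldn7 UMIs against 8.13 and 7.01 in epithelium, and endothelial cells held 72.8 and 340 Tjp1 UMIs against 4.67 and 4.33. Cldn15 had 1.68 and 1.96 UMIs per 100 Cldn7 UMIs in epithelium, 14.4 and 14.1 in neutrophils, and 8.0 and 25 in endothelium, the last from 10 and 15 Cldn15 UMIs. Cldn5, the claudin of blood vessels, was at 509.8 and 326 CPM in endothelium and at 0.16 and 0.06 CPM in epithelium.

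**Figure D1:**
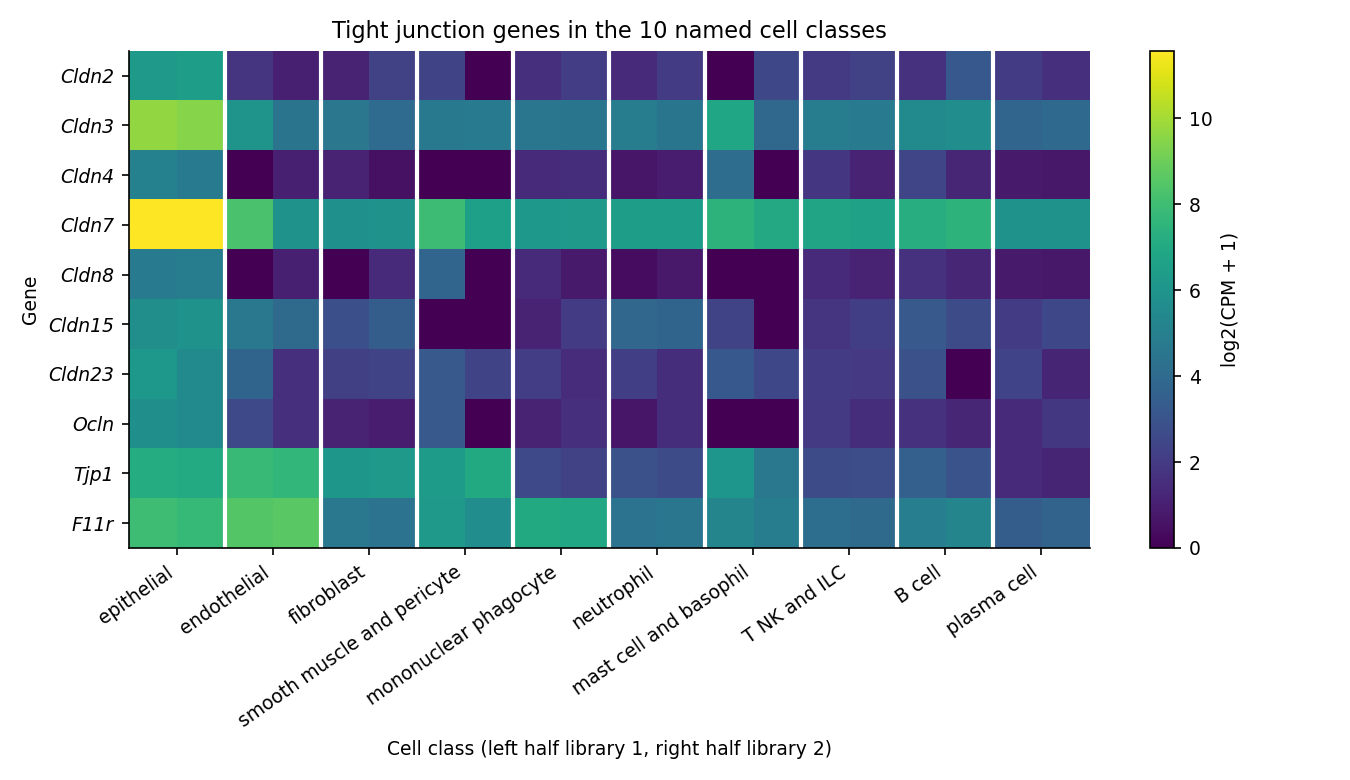
Heat map of the 10 genes (rows) in the 10 named cell classes (columns, each split into library 1 at its left and library 2 at its right), coloured by log2(CPM + 1). The 7 claudins and Ocln are brightest in the epithelial column, while Tjp1 and F11r are brighter in the endothelial column (F11r 355 and 394 CPM) and F11r is also seen in mononuclear phagocytes.

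Within the epithelium, clusters were sorted by marker score into crypt cells (210 in library 1 and 238 in library 2), surface cells (1143 and 535), goblet cells (142 and 123) and enteroendocrine cells (30 and 14). The crypt class joined cluster 1 (72 and 135 cells), led by the dividing-cell genes Nusap1, Cenpf and Ube2c, and cluster 3 (138 and 103 cells). Cluster 3 scored highest for stem markers (1.78, against 1.71 for crypt progenitor markers), but its leading genes were Fabp5, Ccl20 and Spib. Each name says only that the markers of that type scored highest in the cluster. The surface class was made up differently in the 2 libraries. Clusters 7, 9, 10 and 11 held 386, 219, 103 and 127 of its cells in library 1 and 11, 31, 10 and 12 in library 2. Clusters 14 and 8 held 33 and 20 of them in library 1 and 195 and 131 in library 2. The surface values of the 2 libraries are therefore not repeats of the same mix of cells. The 10 genes and all other junction genes were left out when cells were clustered, but genes that vary with them were not, so the classes are not independent of them. Crypt cells carried 1293 and 1035 CPM of the 12 stem markers together, surface cells 65.7 and 57.8 CPM. The 20 surface colonocyte markers summed to 62381 and 69220 CPM in surface cells and to 5627 and 4062 CPM in crypt cells. Of the lists for non-epithelial cells, the 8 neutrophil markers differed most in summed CPM: 344 and 521 CPM in crypt cells and 1313 and 1750 CPM in surface cells, with none at 0. The 12 markers of the T class summed to 37.5 and 53.4 CPM in crypt cells and 36.8 and 47.6 CPM in surface cells. The neutrophil list includes Ly6g, which epithelial cells can hold and which was among the genes leading surface cluster 9. Neither the part of Ly6g in these sums nor that of neutrophil RNA in the values below was tested.

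The scale matters for every statement on crypt and surface. Crypt cells held on average 37214 and 41844 UMIs and surface cells 17330 and 17586, so a gene may take up a larger part of the RNA of surface cells while each cell holds fewer molecules. Values are given on 3 scales: TMM, which centres most genes near no change (median of all genes 0.03), plain CPM (median −0.996) and UMIs per cell (median −2.21, all as log2 of surface minus crypt). On the TMM scale 8 of the 10 genes were called higher in surface cells and 2 higher in crypt cells, against 77.1% of the 13867 genes tested (39.6% higher in surface cells and 37.5% higher in crypt cells). With plain CPM the split was again 8 and 2, against 80.9% of all genes (19.8% and 61.1%). Per cell it was 4 and 3, with 3 not called, against 91.6% of all genes (7.58% and 84%). All 10 genes passed the filter on low counts, and their median difference was 2.27, 1.25 and 0.07 on the 3 scales. The test had 2 residual degrees of freedom and took its estimate of spread from all genes.

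The pore-forming pair was higher in crypt cells. Cldn2 stood at 189 and 196 CPM in crypt cells and at 1.62 and 1.70 CPM in surface cells. Both libraries thus placed crypt cells far above surface cells, and the groups did not overlap. The surface value was different by log2 −5.84 ± 0.17 with TMM (adjusted p = 6.1e-09), the 220th largest change on that scale among the genes tested. The difference was −6.88 with plain CPM and −8.05 per cell. In molecules this was 7.05 and 8.20 UMIs per crypt cell and 0.03 UMIs per surface cell in both libraries. After thinning every cell to 2000 UMIs, 28.6% of crypt cells in library 1 (95% exact interval 22.6 to 35.2) and 23.9% in library 2 (18.7 to 29.9) held a Cldn2 UMI. Among surface cells it was 0.62% (0.25 to 1.27) and 0.39% (0.05 to 1.41). The T class, which should lack the gene, had 0.70% and 0.98%, so the surface share was not above that of a class taken as background, and it is not read as expression. The source of these UMIs was not tested. In CPM the T class (2.88 and 3.76) was above surface cells as well. The unthinned shares were 85.2% and 90.8% in crypt cells, at medians of 30268 and 36177 UMIs, and 1.66% and 1.83% in the T class, at medians of 5248 and 4684 UMIs. Intervals cover counting error only.

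Cldn15, the other cation pore, had the same direction with a smaller difference. It stood at 111 and 121 CPM in crypt cells and at 3.48 and 3.61 CPM in surface cells. The T class, taken as background above, had 2.48 and 3.39 CPM of Cldn15. Surface levels of Cldn2 and Cldn15 lie near this background, so the sizes of both differences may depend on it. The difference was −4.0 ± 0.14 with TMM (adjusted p = 7.7e-09), −5.03 with plain CPM and −6.21 per cell. Goblet cells carried both pore genes at crypt level or above: Cldn2 at 262 and 221 CPM and Cldn15 at 155 and 144 CPM. Against crypt cells, goblet cells were higher by log2 0.44 ± 0.11 for Cldn2 (adjusted p = 0.020), 0.49 ± 0.11 for Cldn15 (adjusted p = 0.012) and 0.47 ± 0.14 for Cldn23 (adjusted p = 0.041), and the other 7 genes did not pass the test (17.7% of all genes were called, 11.4% higher and 6.28% lower in goblet cells). These 3 genes were also higher in both libraries as plain CPM and as UMIs per cell. Between surface and goblet cells all 10 genes were called, Cldn2 (−6.28 ± 0.17) and Cldn15 (−4.49 ± 0.14) lower and the other 8 higher in surface cells with TMM, against 75.3% of all genes (36.8% higher and 38.5% lower). The goblet class joined a cluster led by Agr2 and Spink4 that also held dividing-cell markers (cluster 0, 109 and 111 cells) and a smaller one led by Clca1, Zg16 and Muc2 (cluster 16, 33 and 12 cells). In library 1 Cldn2 stood at 293 CPM in the first and 19.0 CPM in the second, and Cldn15 at 171 and 29.9 CPM. Library 2 held too few cells of cluster 16 for a value. Cluster 0 was close to the crypt class in its markers, with scores of 1.71 for goblet and 1.70 for dividing cells, and the goblet class changed with the grouping: it held 51 and 16 cells at a finer clustering, and 140 and 0 when the libraries were clustered apart. The goblet comparisons were not run under other groupings.

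**Figure D2:**
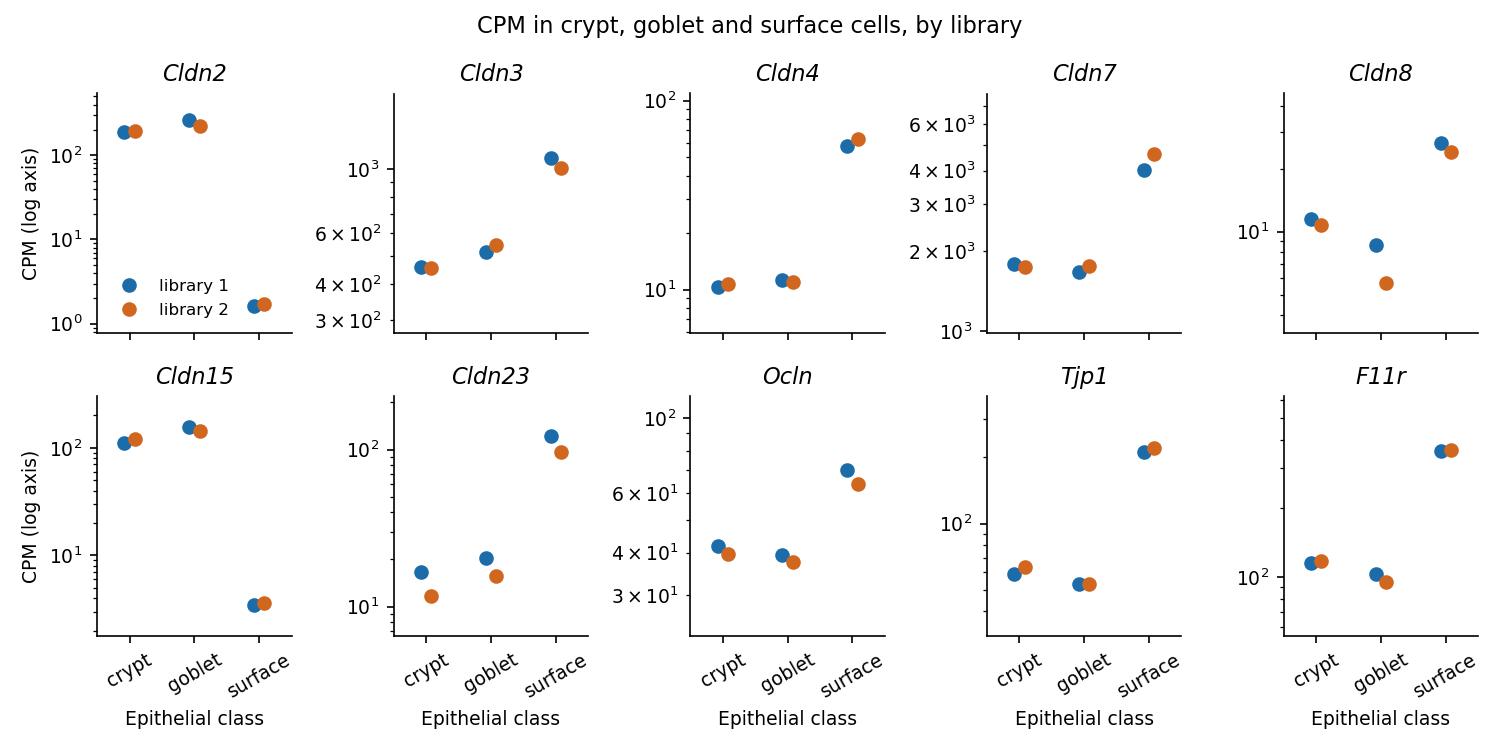
CPM (log axis) of each gene in crypt, goblet and surface cells, with 1 point per library. Cldn2 and Cldn15 are lower in surface than in crypt cells (Cldn2 1.62 and 1.70 against 189 and 196 CPM) and the other 8 genes are higher on this CPM scale, while per cell Ocln is lower in surface cells and Cldn3, Cldn7 and Cldn8 were not called.

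Sealing claudins took a larger part of the RNA of surface cells. Cldn7 rose from 1786 and 1740 CPM in crypt cells to 4013 and 4628 CPM in surface cells, by log2 2.31 ± 0.11 with TMM (adjusted p = 3.6e-08) and 1.29 with plain CPM. Per cell the levels were 66.5 and 72.8 UMIs in crypt cells and 69.5 and 81.4 in surface cells, a log2 difference of 0.11 that did not pass the test (adjusted p = 0.50). Cldn3 had 458 and 454 CPM in crypt cells and 1088 and 1010 CPM in surface cells (2.23 ± 0.12 with TMM, adjusted p = 6.2e-08, and 1.20 with plain CPM). Its UMIs per cell were 17.0 and 19.0 against 18.9 and 17.8, overlapping between the classes (0.02, adjusted p = 0.88). The direction of both genes therefore held with TMM and plain CPM and was not called per cell. A p that misses the threshold does not show that the levels per cell are equal.

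Cldn23 and Cldn4 rose on all 3 scales. Cldn23, a claudin of differentiated gut epithelium, went from 16.6 and 11.7 CPM to 121 and 96.7 CPM. Its difference was the largest upward one of the 10: 3.97 ± 0.12 with TMM (adjusted p = 6.6e-09), 2.95 with plain CPM and 1.78 per cell (0.62 and 0.49 UMIs against 2.10 and 1.70). Cldn4 went from 10.4 and 10.7 CPM to 57.7 and 62.3 CPM, by 3.52 ± 0.13 (adjusted p = 7.9e-09), 2.5 and 1.32 on the same scales. In cells thinned to 2000 UMIs, Cldn4 was seen in 10.0% and 7.66% of surface cells, 1.43% and 2.94% of crypt cells and 0.32% and 0.26% of the T class. Unthinned, the shares were 23.5% and 18.5%, 12.4% and 17.6%, and 1.54% and 0.66%. The share climbs with depth, so cells without a UMI are not shown to lack the RNA. The UMIs were unevenly spread over clusters. Surface cluster 5 (8.45 and 1.57 CPM) and cluster 10 (4.65 CPM in library 1) lay below the crypt class. Surface clusters 6, 7, 8, 9, 11 and 14 lay above it in CPM in each library with enough of their cells. In library 2, 297 of the 586 Cldn4 UMIs of surface cells (50.7%) came from 12 cells of a 31-cell cluster led by Prss22, Cxcl5 and Ly6g (cluster 9), with 84 UMIs in 1 cell. Without that cluster, which was singled out after its values were seen, surface cells stood at 60.4 and 33.1 CPM of Cldn4, and the TMM difference was 3.15 (adjusted p = 2.6e-06).

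Cldn8, a sealing claudin of the distal colon, depended most on how cells were grouped. Crypt cells had 11.5 and 10.7 CPM and surface cells 26.5 and 23.9 CPM, a difference of 2.19 ± 0.15 with TMM (adjusted p = 4.7e-07) and 1.17 with plain CPM. Counted per cell it was not called (−0.01, adjusted p = 0.98), with 0.43 and 0.45 UMIs in crypt cells and 0.46 and 0.42 in surface cells, overlapping between the classes. In library 1, 353 of the 524 surface UMIs (67.4%) came from cluster 9, which there held 219 cells. Leaving it out put library 1 at 11.9 CPM, close to its crypt value, and library 2 at 24.0 CPM, with a TMM difference of 1.68 (adjusted p = 0.00041). Between the lowest and the highest of 5 bins of a crypt-to-surface score the TMM difference was 1.12 and did not pass the test (adjusted p = 0.054). The lowest bin did not cover the same score range in the 2 libraries, as given below.

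Occludin had the smallest TMM change of the 10 and turned with the scale. It stood at 42.0 and 39.7 CPM in crypt cells and 70.1 and 63.8 CPM in surface cells, 1.74 ± 0.11 with TMM (adjusted p = 2.6e-07) and 0.71 with plain CPM (adjusted p = 0.00014). Per cell it was lower in surface cells, at 1.56 and 1.66 UMIs against 1.22 and 1.12, a log2 difference of −0.46 (adjusted p = 0.0069). The scaffold gene Tjp1 rose from 58.9 and 63.3 CPM to 212 and 221 CPM, by 2.85 ± 0.11 with TMM (adjusted p = 9.9e-09), 1.82 with plain CPM and 0.64 per cell (adjusted p = 0.00026). F11r rose from 115 and 117 CPM to 356 and 362 CPM, by 2.65 ± 0.11 (adjusted p = 1.4e-08), 1.63 and 0.45 (adjusted p = 0.0069 per cell).

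**Figure D3:**
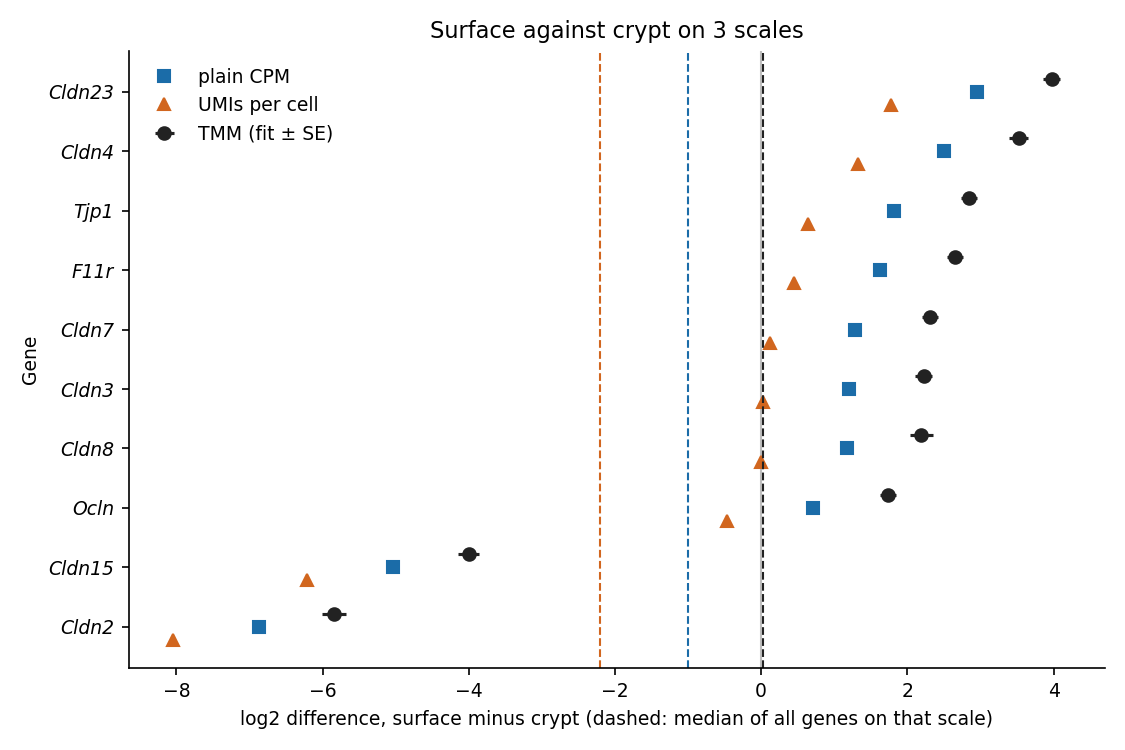
Log2 difference of surface minus crypt for the 10 genes on 3 scales, TMM (circles, ± SE of the fit), plain CPM (squares) and UMIs per cell (triangles), with dashed lines at the median of all genes on each scale (0.03, −0.996 and −2.21). Cldn2 and Cldn15 lie left of all 3 medians and the other 8 genes right of the median of their own scale, though per cell Ocln (−0.46) lies below 0 and Cldn3 (0.02), Cldn7 (0.11) and Cldn8 (−0.01) were not called.

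The mix of claudins in a cell does not depend on the scaling. Of the UMIs of all 7 claudins, Cldn2 and Cldn15 together took 11.6% in crypt cells of library 1 (95% exact interval 11.2 to 12.1) and 12.4% in library 2 (12 to 12.9). Goblet cells had 15.8% (15.3 to 16.4) and 13.6% (13.0 to 14.1), and surface cells 0.10% (0.08 to 0.12) and 0.09% (0.07 to 0.12). The goblet clusters were unlike each other: cluster 0 had 17.6% and 14.1%, and cluster 16, led by Clca1, Zg16 and Muc2, had 1.92% and 3.63%. Cldn7 took the largest share of the 7, 69.1% and 68.4% in crypt cells against 75.5% and 79.4% in surface cells. Where Cldn2 and Cldn15 take less, the shares of the other claudins are larger by arithmetic alone. The Cldn7 values are therefore not read as a gain of Cldn7 over the other sealing claudins. The Cldn23 share went from 0.64% and 0.46% to 2.28% and 1.66%, and that of Cldn3 was 17.7% and 17.9% in crypt cells and 20.5% and 17.3% in surface cells, overlapping between the classes. Genes differ in how well their RNA is captured, so each share is compared only with that of the same gene in another class.

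Along the order from crypt to surface, the genes differed in where their levels lay. Epithelial cells (1552 and 1048, without goblet and enteroendocrine cells and the clusters led by neutrophil or T cell genes) were ranked by surface minus crypt marker levels. They were cut into 5 bins of equal size within each library, bin 1 being the most crypt-like. The upper bound of bin 1 was a score of −0.11 in library 1 and −1.75 in library 2. Bin 1 held 311 and 210 cells, and the crypt class 210 and 238. The same low bin number thus covers unlike cells in the 2 libraries. Cldn2 was at 139 and 209.6 CPM in bin 1, 2.42 and 18.7 CPM in bin 2 and between 1.20 and 2.19 CPM in bins 3 to 5. Cldn15 was at 92.5 and 127 CPM in bin 1, 11.8 and 31.4 CPM in bin 2 and 2.25 and 3.61 CPM in bin 5. Both genes were near their surface level from bin 3 on in each library. Cldn23 was higher in each bin than in the one before, from 23.4 and 11 CPM to 145 and 91.1 CPM, and so was Cldn7, from 2029 and 1693 CPM to 4302 and 4788 CPM. Ocln was at 40.0 and 39.3 CPM in bin 1, 44.9 and 35.2 CPM in bin 2 and 76.0 and 55.4 CPM in bin 5.

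Of the 10 genes, Cldn8 alone had its highest level between the ends in both libraries. Its levels from bin 1 to bin 5 were 24.6, 48.8, 39.2, 18.1 and 15.1 CPM in library 1 and 8.10, 57.1, 41.2, 41.1 and 22.7 CPM in library 2, highest in bin 2 of each. For Cldn4 the libraries differed: its levels went from 13.7 CPM in bin 1 up to 61.1 CPM in bin 5 of library 1, while in library 2 they were 11.3 CPM in bin 1, 51.4 CPM in bin 2 and 20.7 CPM in bin 5. Bin 1 need not hold crypt cells only, and 26 and 12 cells lay within 0.05 of its upper bound. Bins 4 and 5 were hardly separated, with 196 and 101 cells within 0.05 of the bound between them. The bins are ranges of a score, not cell types, and these levels are a description with no test.

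**Figure D4:**
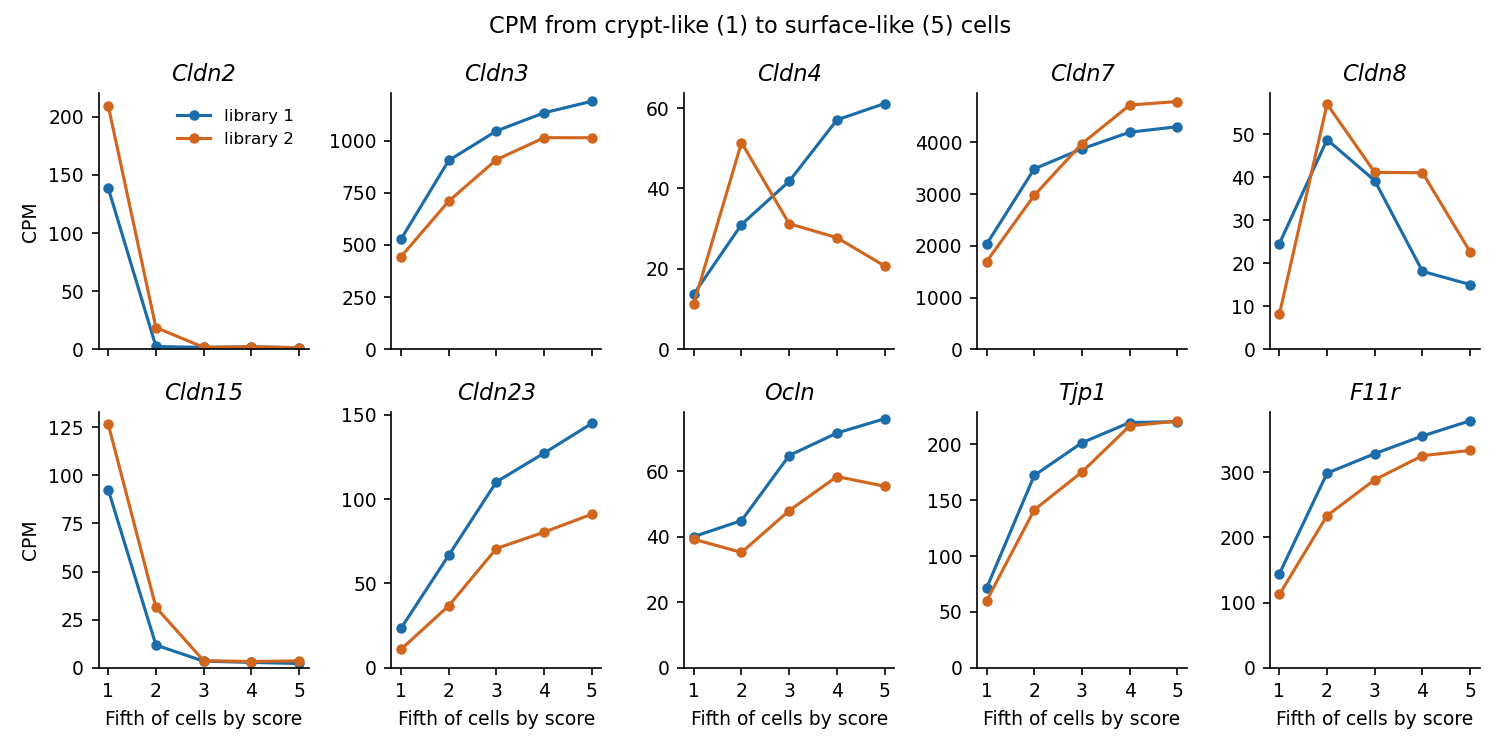
CPM of the 10 genes in 5 equal bins of the epithelial cells ranked from crypt-like (1) to surface-like (5), with 1 line per library. Cldn2 and Cldn15 are low from bin 3 on, Cldn8 is highest in bin 2 (48.8 and 57.1 CPM), and Cldn4 is highest in bin 5 of library 1 (61.1 CPM) but in bin 2 of library 2 (51.4 CPM), all on the CPM scale.

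Cluster by cluster, surface cells were not uniform in these genes. Ocln, Cldn23, F11r and Cldn4 were high together in cluster 6, led by Lce3b, Atp12a and Nos2: 139.9 and 179 CPM of Ocln, 174 and 204 CPM of Cldn23, 492 and 671 CPM of F11r and 143 and 111 CPM of Cldn4. Cluster 5, led by Mal and Alpi, is also surface-like and had 35.1 and 32.0 CPM of Ocln, 69.2 and 54.0 CPM of Cldn23, 258 and 219.6 CPM of F11r and 8.45 and 1.57 CPM of Cldn4. In CPM, the values of these 4 genes in cluster 6 lay above those in cluster 5 in both libraries. Per cell this held for Ocln, Cldn23 and Cldn4, but F11r had 5.33 and 6.02 UMIs in cluster 6 and 5.42 and 4.55 in cluster 5. Cells of cluster 6 were shallow, with medians of 10133 and 7679 UMIs against 19919 and 18161 in cluster 5. The part of depth in this difference was not tested. Clusters 7 and 11, present mostly in library 1 (386 and 127 cells there, 11 and 12 in library 2), were also high in library 1, with 203 and 243 CPM of Cldn23 and 105 and 135 CPM of Ocln.

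Cldn8 was also high outside the named classes. In cluster 2, led by Hao2, Lrg1 and Aqp4, it stood at 59.0 and 97.5 CPM, beside 64.4 and 23.4 CPM in cluster 9, and in cluster 4, led by Myl7, Mt4 and Areg, at 58.3 CPM in library 2, the only library with enough of its cells (241, against 18). Cldn15 was also still present in cluster 2, at 29.1 and 44.8 CPM, while Cldn2 was at 3.12 and 1.99 CPM there. That cluster was the only one with Cldn15 above 20 CPM and Cldn2 under 5 CPM in both libraries, a pattern picked out after its values were seen. Enteroendocrine cells, at 30 cells in library 1 and 14 in library 2, held Cldn4 at 122 and 73.2 CPM from 56 and 20 UMIs.

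**Figure D5:**
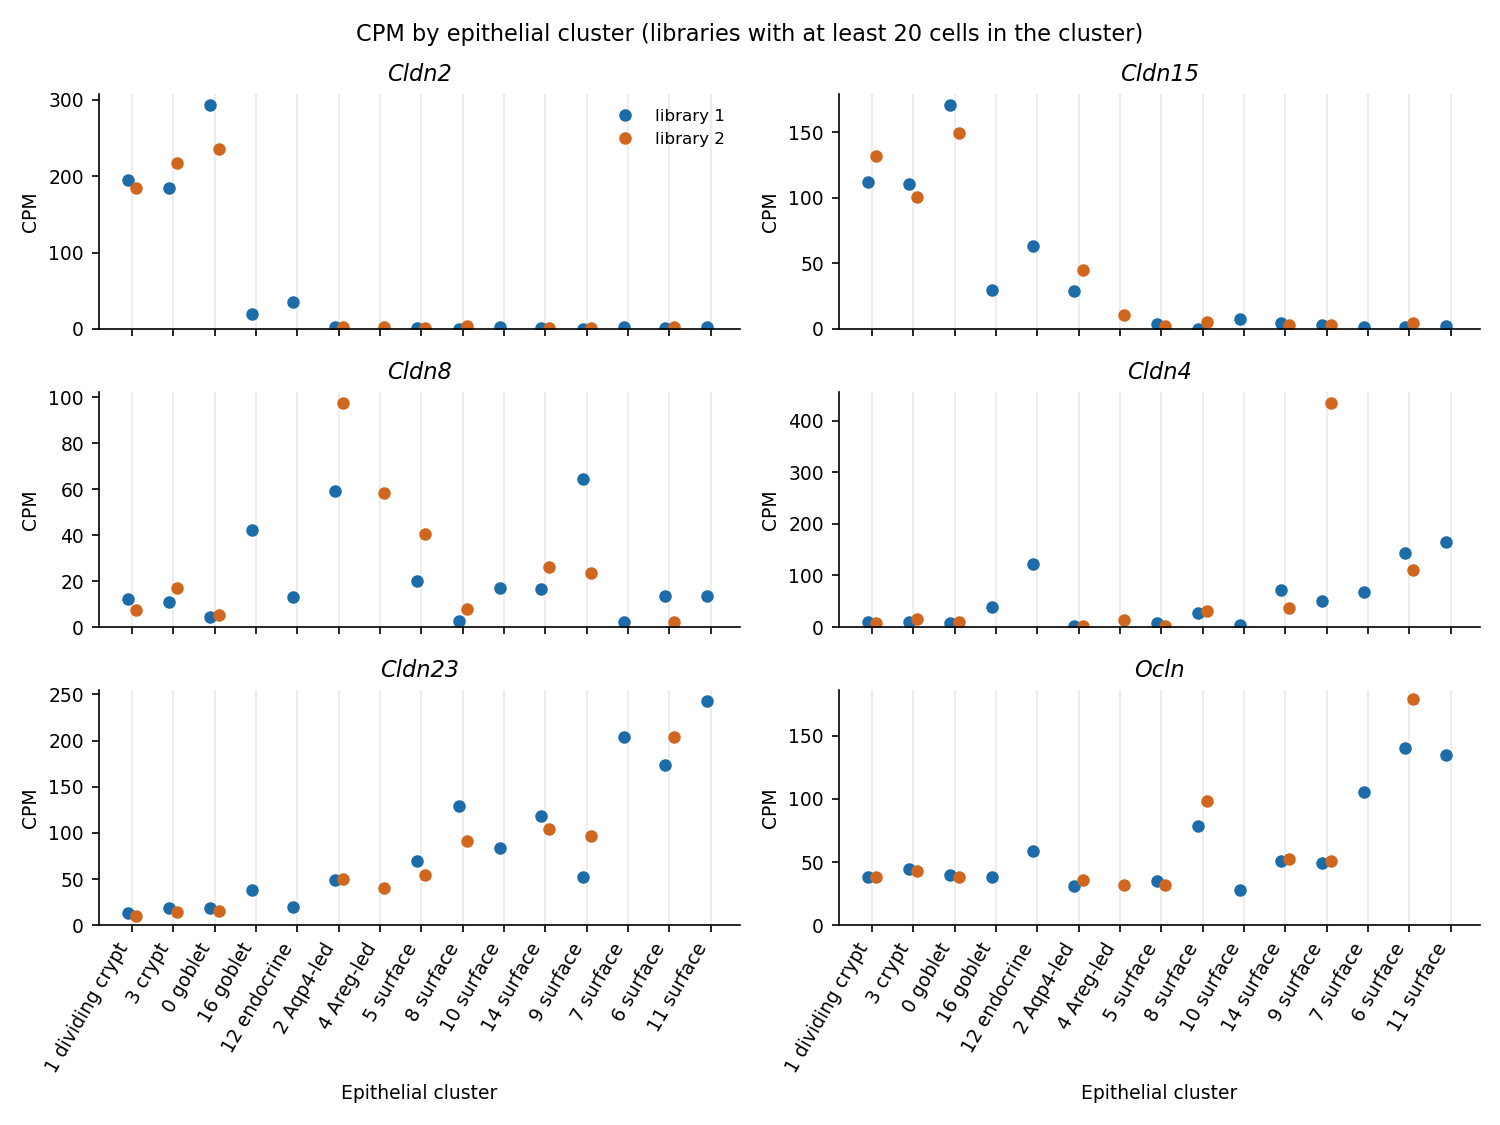
CPM of 6 of the genes in 15 epithelial clusters (the 2 led by neutrophil or T cell genes are not drawn), with a point per library where it had at least 20 cells, crypt clusters at the left and surface clusters at the right in an order chosen by eye. Cldn2 and Cldn15 are highest at the left, with Cldn15 also in cluster 2 (29.1 and 44.8 CPM), Cldn8 is high in clusters 2 (59.0 and 97.5 CPM) and 9 (64.4 and 23.4 CPM), and Cldn23 and Ocln are highest in cluster 6 or 11.

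Profiles over 27 sums of cluster and library give the genes most like 9 of the members among 5701 genes, by Pearson correlation of log2(CPM + 1). The sums share libraries, depth and the crypt-to-surface order, so the values are a description. Cldn2 was most like Cbs, Gnl3 and Ncl (r = 0.957 to 0.954) and Cldn15 most like Idh2, Gstm1 and Fkbp4 (0.980 to 0.974), while Cldn2 and Cldn15 had r = 0.910 with each other. For Cldn7 the nearest were Ccdc186, Prr13 and Pls1 (0.973 to 0.967) and for Cldn3 Tmem150b, Sppl2a and 9130209A04Rik (0.956 each). Tjp1 was nearest to Lmo7, Eps8 and Gprc5a (0.982 to 0.976), F11r to Eps8l3, Gsdmd and Stk25 (0.966 to 0.963) and Ocln to Tec, Atg2a and Fam83b (0.924 to 0.864). Cldn4 was nearest to Egfr, Nos2 and Marcksl1 (0.871 to 0.828) and Cldn8 to Krt19, Paqr5 and Slc5a9 (0.912 to 0.847). Although Cldn3 and Cldn4 are neighbours in the genome, their profiles had r = 0.337.

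Other junction genes were counted in 8 lists on the TMM scale. The counts moved with the scale, so those per cell are given beside them. The median differences of the lists ran from 0.78 (transcription factors) to 2.40 (membrane genes) with TMM and from −1.43 to 0.21 per cell, apart from the other claudins at −0.87 and −2.99, where all genes had 0.03 and −2.21. Of all genes tested, 39.6% were called higher in surface cells and 37.5% higher in crypt cells with TMM, and 7.58% and 84% per cell, which is what each count below stands beside. Of 8 other tight junction membrane genes tested (13 listed), 7 were called higher in surface cells and 1 in crypt cells, and 3 and 3 per cell. Igsf5, which encodes a JAM family protein, went from 21.9 and 21.1 to 88.6 and 98.7 CPM (3.14 ± 0.12). Ildr1, an angulin of tricellular contacts, went from 95.1 and 120.5 to 348 and 367 CPM (2.76 ± 0.12), whereas Lsr, another angulin, went from 88.8 and 92.0 to 10.1 and 15.7 CPM (−1.83 ± 0.18, adjusted p = 5.6e-06). Both angulins kept these directions on all 3 scales.

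The scaffold and polarity list had 16 genes higher in surface cells, 2 higher in crypt cells and 8 not called of 26 tested, against 3, 18 and 5 per cell, where 84% of all genes were called higher in crypt cells. Pard6b and Pals1, polarity proteins, rose by 3.72 ± 0.14 and 3.42 ± 0.14, and the angiomotin gene Amot fell by 2.12 on the log2 scale, from 33.7 and 31.5 to 3.84 and 3.40 CPM. Adherens junction genes split 9 to 2 with 1 not called of 12 (2, 4 and 6 per cell). Cdh17, the intestinal cadherin, went from 244 and 226 to 1210 and 1351 CPM, and Nectin1 from 13.7 and 13.7 to 0.35 and 0.32 CPM. For desmosomes 9 of 10 were higher in surface cells and 1 was not called (4, with 3 higher in crypt cells, per cell), led by Evpl (3.17 ± 0.13) and Dsg2 (3.06 ± 0.11).

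Genes of claudin partners and proteases numbered 8 higher in surface cells, 1 in crypt cells and 1 not called of 10 (2, 6 and 2 per cell). St14, the membrane protease matriptase, went from 117.5 and 119.8 to 415 and 426 CPM, and its inhibitors Spint1 and Spint2 rose by 2.88 ± 0.12 and 2.36 ± 0.11, while the tetraspanin gene Cd81 went from 199 and 198 to 30.1 and 30.2 CPM. All 10 tension genes tested were called higher in surface cells (3, with 6 higher in crypt cells, per cell), where 39.6% of all genes were so called with TMM and 7.58% per cell, with Myh14, a non-muscle myosin, at 114 and 107 against 824 and 938 CPM. Mylk, the myosin light chain kinase that opens tight junctions, went from 39.7 and 19.9 to 109.6 and 123 CPM (3.04 ± 0.21). Transcription factors split 8 to 5 with 2 not called of 15 (1, 10 and 4 per cell): Klf4 and Hnf4a rose by 3.28 ± 0.14 and 2.32 ± 0.11, and Cdx1 went from 332 and 286 to 61.0 and 45.9 CPM.

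Of 29 other claudin genes, 17 had a UMI in a kept cell of either library and 4 could be tested. Cldn10 was higher in crypt cells, at 10.5 and 1.20 CPM against 0.15 and 0.11 CPM, and library 1 gave most of its crypt UMIs. Among the main cell classes its highest level was in B cells, and the epithelium as a whole had 2.31 and 0.55 CPM. Cldn14, with 147 and 86 UMIs in all kept cells, was also called higher in crypt cells, at 0.51 and 1.0 against 0.05 and 0.11 CPM. Both classes lay below its 3.39 and 3.98 CPM in goblet cells and 3.12 and 2.28 CPM in the epithelium as a whole. Cldn12 (18.3 and 17.2 against 12.5 and 12.2 CPM) was called higher in surface cells with TMM (0.50 ± 0.14, adjusted p = 0.0085) but lies lower there with plain CPM (−0.52) and per cell (−1.70). Cldnd1, a claudin-domain gene, differed by 1.20 ± 0.12 with TMM, 0.18 with plain CPM and −0.999 per cell. Cldn1, which is often studied in colitis, had 49 and 77 UMIs in all kept cells and only 0.05 and 0.03 CPM in epithelium.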

How the data were processed

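Single-cell RNA was read from 2 libraries of mouse mid-colon. The authors deposited raw UMI counts per gene and barcode, made with Cell Ranger 7.0.0 per the file headers (8.0.0 per the submitters' processing notes) on mm10. The labels' protocols name both a V3 kit and v2 reagents and aim at 5000 cells per library. The libraries held 6597 and 9611 barcodes and 76622643 and 94204110 UMIs. Barcodes with under 200 genes (36 and 9), over 20% mitochondrial UMIs (876 and 484) or called doublets by Scrublet in scanpy 1.11.5 at an assumed 0.8% per 1000 barcodes (262 and 666) were left out.

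Cells were clustered (2000 variable genes, 30 components, 15 neighbours, resolution 1.0) without the 10 genes and the other junction genes (1020 genes held out, with mitochondrial, ribosomal and immunoglobulin genes). Clusters were named from marker lists by a rule set after the clusters were seen, and 8.02% of kept cells stayed without a main class. Within the epithelium, 309 cells of library 1 (16.8%) and 321 of library 2 (26.1%) stayed unnamed. These cells, clusters 2 and 4 among them, took no part in the comparison of crypt and surface classes. The members, marker lists and junction lists were chosen with earlier results of these data known. Counts were added up within each class and library of at least 20 cells and tested with edgeR 4.0.16 (R 4.3.3): TMM, filterByExpr, quasi-likelihood test, class plus library, Benjamini-Hochberg over all genes tested. Sums of 1 library share its tissue and processing, which is where the library block comes from. SEs are the log2 difference over the square root of F. The fits had 9 residual degrees of freedom over 20 sums (cell classes) and 2 over 6 sums (epithelial classes). Junction genes were named by size of change among those called, up to 3 per list and direction. The genes most like a member were the 3 highest correlations among genes with a mean of at least 20 CPM; those of Cldn23 are not reported here. For shares, cells were thinned to 2000 UMIs and shallower cells left out (14 and 26 surface cells, 109 and 230 of the T class, 0 crypt cells). Exact (Clopper-Pearson) 95% intervals cover counting error only. The fits were tested on simulated data. Alternatives were DESeq2 1.42.0, other scalings and filters, no library block, libraries clustered apart, either library alone, and classes without some clusters.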

Additional observations from a re-analysis of the deposited data

How the results depend on the processing

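Across 18 settings of surface against crypt, the reported one included, Cldn2 lay between −8.05 and −5.47 and Cldn15 between −6.21 and −3.51 on the log2 scale, Cldn23 between 1.78 and 4.18, Cldn4 between 1.32 and 3.73, Tjp1 between 0.64 and 3.05 and F11r between 0.45 and 2.86, each called wherever a test could be run. Plain CPM, UMIs per cell and both ways of leaving out surface clusters were chosen after seeing the data. UMIs per cell reversed Ocln (−0.46, adjusted p = 0.0069) and left Cldn8 (−0.0066, adjusted p = 0.98), Cldn3 (0.02) and Cldn7 (0.11) not called, so that 4 genes were called higher in surface cells and 3 in crypt cells in place of 8 and 2; by construction it does not remove the difference in UMIs per cell. Cldn8 was 1.13 with finer epithelial clusters (still called). With score bins in place of classes it was 1.12 (adjusted p = 0.054), and the cause was not tested. With no replicate block the members' calls were the same, 8 and 2, among 9936 genes called in place of 10693, and for epithelium against other classes 10 and 0 among 7482 in place of 7735. All genes called ranged from 7980 (libraries clustered apart) to 12645 (UMIs per cell), and 11739 were called in epithelium against other classes per cell. Shares of cells with a UMI follow the depth to which cells are thinned: for Cldn2 in crypt cells the mean share was 18.0% at 1000 UMIs and 50.6% at 4000, and for Cldn4 in surface cells 5.56% and 12.5%. With 1 library at a time these shares were 23.9% to 28.6% and 7.66% to 10.0% at 2000 UMIs, and the differences had no residual degrees of freedom and no test.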
